A study of Homo sapiens with 6 samples.

Results

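The genes described here are 10 that build, fill and process the cargo of dense-core granules, chosen by symbol in the deposited count table, which holds 58395 genes. They are the granins CHGA, CHGB, SCG2, SCG3 and VGF, the convertase chaperone SCG5, the neuropeptide gene NPY, and the enzyme genes PCSK1, PCSK2 and CPE. Of these, 9 had enough reads to be tested, among 16778 tested genes, and PCSK1 did not.

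Neuroendocrine cells and neurons pack peptides into dense-core granules, vesicles that bud from the Golgi apparatus and wait for a calcium signal before they fuse with the plasma membrane. The acidic granins condense in the Golgi lumen and help to form the granule core, peptide precursors travel with them, prohormone convertases cut the precursors after pairs of basic residues, and a carboxypeptidase trims the basic residues left at the new ends. Sympathetic neurons and the neuroblastomas that arise from their lineage are known for granules that hold chromogranins, neuropeptide Y and noradrenaline together.

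The study sequenced polyadenylated RNA of SH-SY5Y, a human neuroblastoma cell line, in 3 control libraries and 3 libraries labelled Tau. Control cells received the empty pcDNA3.1 vector, and the other cells received the same plasmid carrying Tau 0N4R, a major isoform of the microtubule-associated protein encoded by MAPT. All cells were transfected transiently with a lipid reagent, and both groups were then differentiated, by the study's methods with retinoic acid (10 uM, 5 days) followed by brain-derived neurotrophic factor (50 ng/mL, 15 days), so that controls and treated cells share 1 line and 1 schedule. The sources used here do not say whether the 3 libraries of a group came from separate cultures, so every p-value measures the spread between these libraries, which may be technical.

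Library totals ran from 27945481 to 31706415 reads. MAPT stood at 34.8, 51.9 and 41.6 CPM (reads scaled to library size) in the control libraries and at 34.6, 32.6 and 34.6 CPM in those labelled Tau, so its reads did not mark the labelled overexpression (log2 fold change -0.33, edgeR's adjusted p = 0.239), and the groups are named by label throughout. Mitochondrially encoded genes took 30.5 to 45.6% of the reads in the controls and 45.8 to 57.8% in the libraries labelled Tau. The log2 fold changes of 16663 genes followed the GC content of the gene (Spearman correlation 0.47 across genes, which are not independent replicates). Within each library, log2 CPM relative to the gene's mean correlated with GC content at -0.52, -0.37 and 0.12 in the controls. The values were 0.44, 0.26 and 0.32 in the libraries labelled Tau. The mitochondrial share and the GC trend thus both separate the groups, and fits that adjust for either cannot tell it apart from the label. Of 12 sympathetic neuroblast markers, 11 were tested, with a summed level of 2310 to 2698 CPM in the controls and 1992 to 2166 CPM in the libraries labelled Tau, and the noradrenaline synthesis gene TH stayed at or below 0.852 CPM in all 6. By the rule given below edgeR called 0 of these 11 higher and 3 lower, against 9.37 and 8.42% of all tested genes. Of 8 glial markers 5 were at 0 in every library, and the 6 immune markers summed to at most 0.134 CPM. Of 10 mesenchymal markers, 7 were tested, and their sum was 79.4 to 91.9 CPM in the controls and 101 to 122 CPM in the libraries labelled Tau. By the same rule 2 of the 7 were higher, COL1A1 and PDGFRB, 0 were lower and 5 were not called.

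Against this background PCSK2 and NPY were higher in the libraries labelled Tau. A call here is a false discovery rate under 0.1 in edgeR's quasi-likelihood test, adjusted over all 16778 genes, with an absolute log2 fold change over 0.5. By that rule 2 of the 9 tested members were higher, against 9.37% of all tested genes, and 0 were lower, against 8.42%. The count of 0 lower members from edgeR stands beside 4 members at an unadjusted p under 0.05 in either direction, and beside 1 lower member by DESeq2, CHGA, where 8.64% of all tested genes were called lower. DESeq2 called 3 members higher, PCSK2, NPY and VGF, against 10.6% of all tested genes. The median log2 fold change was -0.12 over the 9 members and -0.03 over all tested genes. In bulk RNA, fewer cells of a kind and less RNA per cell cannot be told apart.

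**Figure D1:**
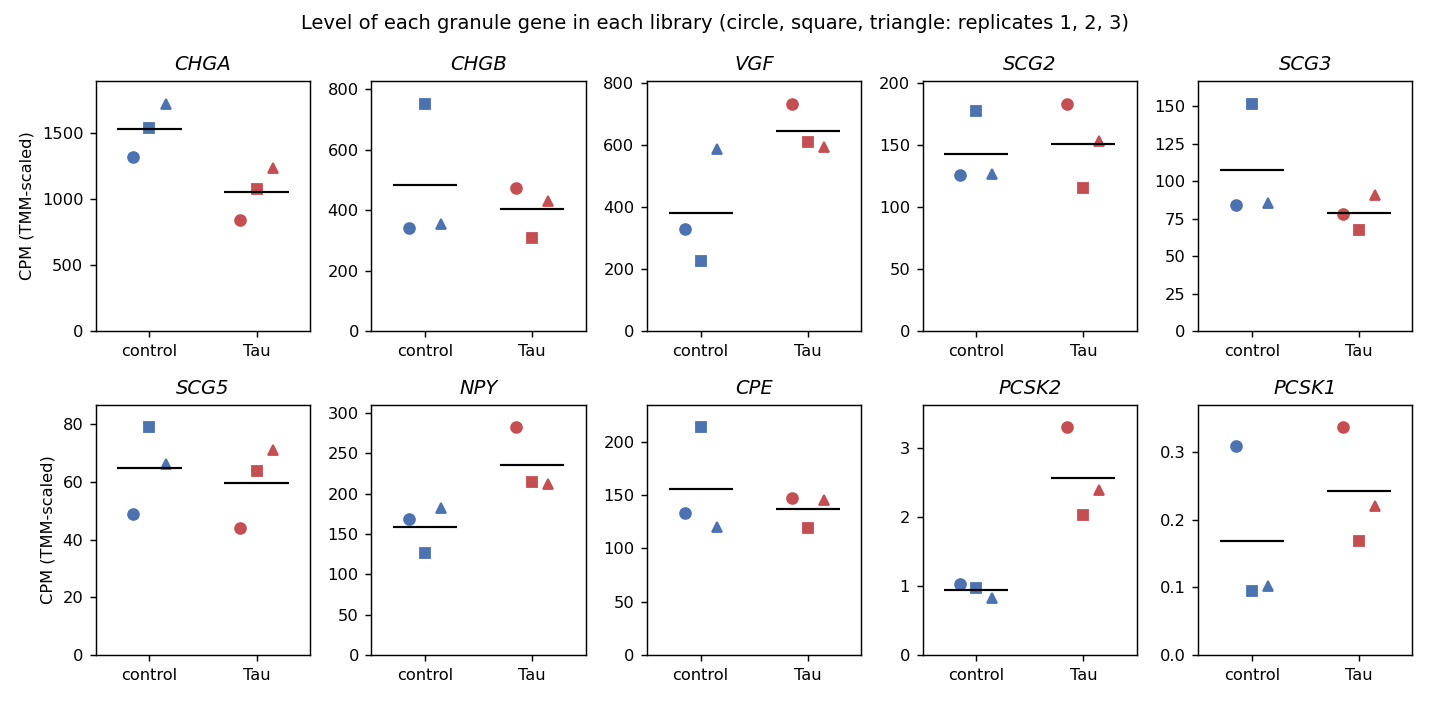
Level of each granule gene, in CPM after TMM scaling on a linear axis from 0, in the 3 control libraries (blue) and the 3 libraries labelled Tau (red), with the group mean as a line. The groups do not overlap for CHGA, VGF, NPY and PCSK2, and control replicate 2 stands above the other 5 libraries for CHGB, SCG3, SCG5 and CPE.

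The groups did not overlap for 4 tested members. NPY, VGF and PCSK2 lay higher in all 3 libraries labelled Tau, 3 of 9 members where 16.1% of all tested genes did the same. CHGA lay lower in all 3, 1 of 9 members where 16.8% of all tested genes did. TMM scaling sets the middle of all genes near no change, whereas scaling by total counts, which include the mitochondrial reads, moved all genes by a median log2 of -0.34. Under total counts edgeR called 559 genes higher and 2886 lower, in place of 1572 and 1413, and among the members PCSK2 higher and CHGA lower.

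Levels were compared between genes per length, in the deposited RPKM (reads scaled to library size and gene length). CHGA led with a mean of 428 RPKM over the 6 libraries, rank 39 among the tested genes. NPY followed at 213 RPKM and VGF at 185 RPKM, and each of these orders held in 5 of 6 libraries, NPY being above CHGA in Tau replicate 1. CHGB stood at 104 RPKM, SCG2 at 55.9 and CPE at 51.7, and SCG2 was above CPE in 5 of 6 libraries. SCG3 at 29.7 RPKM and SCG5 at 28.9 RPKM could not be ordered, with SCG3 above SCG5 in 3 of 6 libraries. PCSK2 was far below all of these at 0.242 RPKM, rank 15226, and PCSK1 last at 0.0384 RPKM. The cargo genes were thus among the abundant messages of these cells, while both convertase genes were near the floor and CPE was not.

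Chromogranin A, encoded by CHGA (ENSG00000100604, chromosome 14, 92923150 to 92935285, plus strand, GRCh38), is the founding granin and the precursor of several regulatory peptides. It stood at 1318, 1535 and 1718 CPM in control replicates 1 to 3 and at 840.3, 1074 and 1236 CPM in Tau replicates 1 to 3. The highest library labelled Tau lay below the lowest control, with group means of 1523 ± 200.1 and 1050.0 ± 199 CPM (SD, n = 3 each). The log2 fold change was -0.54 (SE 0.22, 95% interval -1.01 to -0.07), and edgeR's adjusted p = 0.126 missed the threshold. DESeq2 called it lower, with a log2 fold change of -0.52 and an adjusted p = 0.0717. CHGA was called lower in 8 of 22 alternatives to the edgeR fit, whose log2 fold changes ran from -0.90 to -0.38 and whose adjusted p ran from 0.0501 to 0.291, and in none of the 6 that left out a library.

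CHGA lay on the other side of 0 from the middle of the genes with its GC content. The gene is 61.7% GC, and the 1689 tested genes within 2 percentage points of that value had a median log2 fold change of 0.32, with 21.7% of them higher and 1.54% lower. With each library's GC trend removed, the log2 fold change of CHGA was -0.86 (edgeR's adjusted p = 0.0501). In a fit that included the mitochondrial share it was -0.67 (edgeR's adjusted p = 0.0885).

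VGF (ENSG00000128564, chromosome 7, 101162509 to 101165569, minus strand) encodes a neurotrophin-induced granin cut into many peptides. It stood at 328, 227 and 588 CPM in the controls and at 733, 610 and 593 CPM in the libraries labelled Tau. The groups do not overlap, but control replicate 3 reached almost the level of Tau replicate 3, and the controls spread more widely (381 ± 186 CPM) than the libraries labelled Tau (645 ± 76.4 CPM). The log2 fold change was 0.76 (SE 0.29, 95% interval 0.12 to 1.40, edgeR's adjusted p = 0.114), which missed the threshold, and DESeq2 called it with 0.77 and an adjusted p = 0.0510. Without control replicate 3 the edgeR value was 1.21 and was called (adjusted p = 0.00671), while without control replicate 2 it was 0.49 (edgeR's adjusted p above the threshold). It was called higher in 6 of 22 alternatives.

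VGF lay on the same side of 0 as the middle of the genes of like composition. At 70.1% GC it has the highest GC content of the members, and the 95 tested genes within 2 points had a median log2 fold change of 0.47, with 24.2% higher and 0 lower in edgeR. With the GC trend removed, the value for VGF was 0.32 (edgeR's adjusted p = 0.376), and in a fit that included the mitochondrial share it was 0.43 (edgeR's adjusted p = 0.402).

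The promoters of CHGA and VGF share a feature that the choice of genes did not use. Cyclic AMP response elements (CRE, the letters TGACGTCA, which read the same on both strands) are bound by CREB and ATF factors, and each contains the shorter element TGACG once on either strand. RefSeq promoter windows on GRCh38.p14, from 250 bases before to 50 after the start, matched 8 of the 10 members. CHGB and SCG2 had no window and were not searched. A full CRE was found 54 bases before the start in CHGA, 79 in VGF and 77 in the first of the PCSK1 windows, and in 1.85% of all 35116 promoter windows. The 120 bases before the start are shown for these 3 genes, on the gene's own strand, with the CRE and any TGACG in capitals, and for NPY, whose window holds none of the motifs searched, as a contrast. They cover chr14:92923030-92923149 (plus strand), chr7:101165570-101165689 (minus strand), chr5:96433249-96433368 (minus strand) and chr7:24284070-24284189 (plus strand).
CHGA: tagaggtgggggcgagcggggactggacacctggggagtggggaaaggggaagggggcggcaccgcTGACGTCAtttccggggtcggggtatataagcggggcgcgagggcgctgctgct
VGF: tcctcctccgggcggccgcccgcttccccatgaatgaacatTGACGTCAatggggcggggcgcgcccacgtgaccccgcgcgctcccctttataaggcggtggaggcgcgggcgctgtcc
PCSK1: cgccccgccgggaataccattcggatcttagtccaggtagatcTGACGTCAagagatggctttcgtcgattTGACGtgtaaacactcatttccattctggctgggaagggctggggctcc
NPY: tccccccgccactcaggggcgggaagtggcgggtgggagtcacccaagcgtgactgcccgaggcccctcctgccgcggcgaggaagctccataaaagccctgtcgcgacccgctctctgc

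The searched members with a full CRE did not share a direction. CHGA lay lower in every library labelled Tau, VGF lay higher in every one, and PCSK1 had too few reads to tell. The other windows held less of this element. The shorter element TGACG on either strand, present in 24.6% of all windows, occurred without a full CRE in SCG3 (4 bases before the start), SCG5 (17), CPE (221 and 120) and both PCSK2 windows (157 and 96). The letters TATAAA on the gene's strand, present in 7.33% of windows, were found 28 bases before the start in the second PCSK1 window. No other searched member held them, and CHGB and SCG2 were not searched. The letters TTCAGCACC, part of the repressor element RE1, searched on both strands and present in 0.376% of windows, were found in SCG3, 9 bases after the start. A match describes letters in a window, and binding was not measured.

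Chromogranin B, from CHGB (ENSG00000089199, chromosome 20, 5911510 to 5925353, plus strand), is the second chromogranin of the granule core. It stood at 342, 752 and 353 CPM in the controls and at 474, 307 and 431 CPM in the libraries labelled Tau. Control replicate 2 was the highest of all 6 libraries and Tau replicate 2 the lowest, so the groups overlap. The log2 fold change of -0.26 (SE 0.30, 95% interval -0.90 to 0.39, edgeR's adjusted p = 0.601) covers a change in either direction, and without control replicate 2 it was 0.21. In a fit that included the mitochondrial share CHGB was called higher, with a log2 fold change of 0.61 (edgeR's adjusted p = 0.0874), the single call among its 22 alternatives.

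Secretogranin II, from SCG2 (ENSG00000171951, chromosome 2, 223596940 to 223602361, minus strand), is the precursor of secretoneurin. It stood at 126, 178 and 127 CPM in the controls and at 183, 116 and 153 CPM in the libraries labelled Tau, with the lowest and the highest library both among those labelled Tau. Its log2 fold change was 0.07 (SE 0.22, 95% interval -0.40 to 0.54, edgeR's adjusted p = 0.851), and it was -0.26 under total counts.

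Secretogranin III, from SCG3 (ENSG00000104112, chromosome 15, 51681492 to 51721026, plus strand), binds chromogranin A and granule membrane cholesterol. It stood at 84.2, 152 and 85.8 CPM in the controls and at 78.2, 67.3 and 91.0 CPM in the libraries labelled Tau. Tau replicate 3 lay above control replicates 1 and 3, so the groups overlap. The log2 fold change was -0.44 (SE 0.24, 95% interval -0.96 to 0.07, edgeR's adjusted p = 0.237), and -0.11 without control replicate 2. The gene is 41.6% GC, and genes within 2 points of that had a median of -0.27, with 16.7% lower.

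SCG5 (ENSG00000166922, chromosome 15, 32641676 to 32697098, plus strand) encodes 7B2, a chaperone that binds the PCSK2 proenzyme and is needed for it to become active. It stood at 49.0, 78.9 and 66.2 CPM in the controls and at 44.01, 63.8 and 71.2 CPM in the libraries labelled Tau, with full overlap. Its log2 fold change was -0.12 (SE 0.22, 95% interval -0.60 to 0.37, edgeR's adjusted p = 0.760).

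NPY (ENSG00000122585, chromosome 7, 24284188 to 24291862, plus strand) encodes the precursor of neuropeptide Y, a cotransmitter of sympathetic neurons. It stood at 168, 126 and 182 CPM in the controls and at 282, 214 and 212 CPM in the libraries labelled Tau. Every library labelled Tau lay above every control, with means of 159 ± 29.2 and 236 ± 39.9 CPM (SD, n = 3 each). NPY was higher by a log2 of 0.57, or 1.49-fold (SE 0.20, 95% interval 0.13 to 1.01, edgeR's adjusted p = 0.0906).

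The call for NPY was close to the threshold. It held in 9 of 22 alternatives, with adjusted p from 0.0437 to 0.516, and of the 6 fits that left out a library it held only without control replicate 3 (log2 0.68, edgeR's adjusted p = 0.0490). The adjusted p from edgeR was 0.211 without control replicate 1 (log2 0.61) and 0.225 without control replicate 2 (log2 0.43). It was 0.193, 0.170 and 0.158 without Tau replicates 1, 2 and 3, at log2 values of 0.45, 0.63 and 0.66. The call also ended under total counts (log2 0.29, adjusted p = 0.454), on the deposited RPM values (log2 0.24, limma's adjusted p = 0.512), with the GC trend removed (log2 0.40, adjusted p = 0.194) and in a fit that included the mitochondrial share (log2 0.49, adjusted p = 0.195). The direction was the same in all 22. NPY is 56.4% GC, and genes within 2 points had a median of 0.16, with 13.7% higher.

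**Figure D2:**
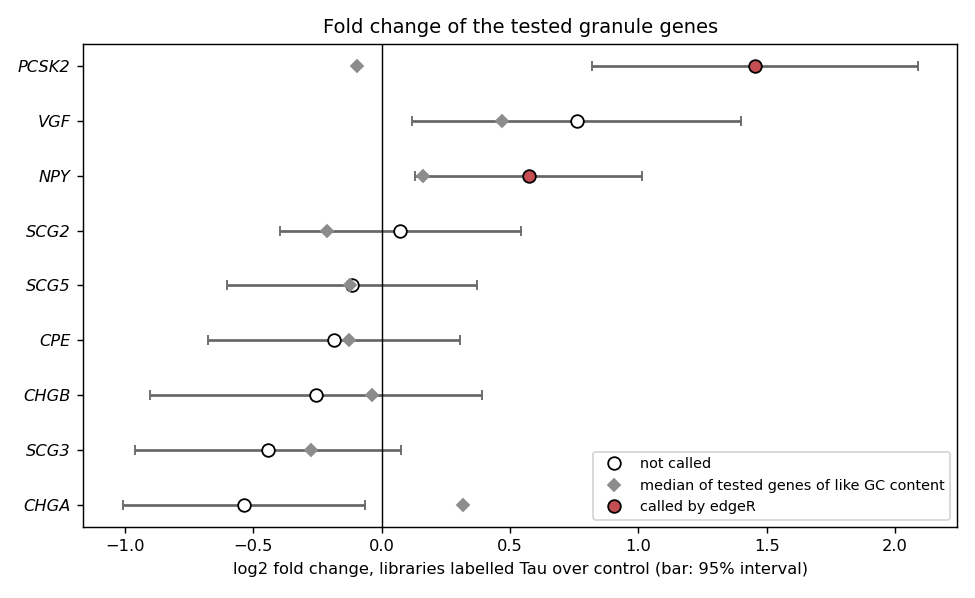
Log2 fold change of the 9 tested granule genes, libraries labelled Tau over control, with 95% intervals from edgeR (filled: called) and the median of all tested genes within 2 percentage points of the same GC content (grey diamonds). CHGA lies at -0.54 against 0.32 for genes of its GC content, and PCSK2 at 1.45 against -0.09.

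Prohormone convertase 2, from PCSK2 (ENSG00000125851, chromosome 20, 17226107 to 17484578, plus strand), cuts precursors in the mature granule. It had 33, 41 and 24 reads in the controls and 98, 48 and 65 in the libraries labelled Tau, or 1.02, 0.968 and 0.818 CPM against 3.29, 2.02 and 2.39 CPM. The lowest library labelled Tau was clearly above the highest control, with means of 0.935 ± 0.105 and 2.57 ± 0.656 CPM. PCSK2 was higher by a log2 of 1.45, or 2.74-fold (SE 0.29, 95% interval 0.82 to 2.09, edgeR's adjusted p = 0.0163). It was the member with the largest fold change of the 9 and the lowest level.

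PCSK2 was called in 20 of 21 alternatives, and the call ended without control replicate 1 (log2 1.51, edgeR's adjusted p = 0.101). The log2 value was 1.51 with the GC trend removed and 1.75 in a fit that included the mitochondrial share, both called by edgeR (adjusted p = 0.0199 and 0.0172). Genes within 2 points of its 47.8% GC had a median of -0.09. On RPM with a pseudocount of 1 the log2 value was 0.67, a scale on which a gene of this level is compressed, and with a pseudocount of 0.1 it was 1.03. Total reads for the gene were 309 over the 6 libraries, and 1 read over the 6 libraries was assigned to DYNLT3P1, the annotated gene that overlaps it.

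**Figure D3:**
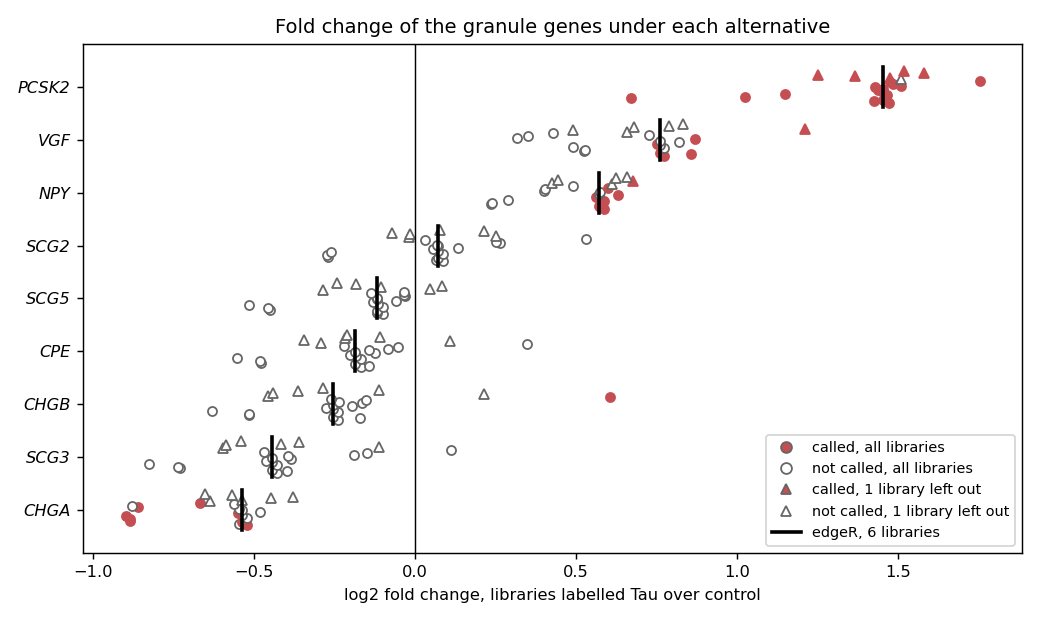
Log2 fold change of each tested granule gene under each alternative (circles: all 6 libraries; triangles: 1 library left out; filled: called by that fit), with the edgeR value on 6 libraries as a bar. PCSK2 is filled in 20 of 21 alternatives, NPY in 9, CHGA in 8, VGF in 6 and CHGB in 1 of 22 (at 0.61, opposite in sign to its bar), and SCG2, SCG3, SCG5 and CPE are on both sides of 0 with 0 filled.

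Prohormone convertase 1/3, from PCSK1 (ENSG00000175426, chromosome 5, 96390333 to 96434143, minus strand), acts earlier in the secretory pathway than PCSK2. It had 10, 4 and 3 reads in the controls and 10, 4 and 6 in the libraries labelled Tau, too few to pass the filter on low counts. In a fit without that filter, over 29036 genes, its log2 fold change was 0.54 and edgeR's adjusted p = 0.642, and a difference was not detectable at this depth.

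Carboxypeptidase E, from CPE (ENSG00000109472, chromosome 4, 165361194 to 165498547, plus strand), removes the basic residues that the convertases leave. It stood at 133, 213 and 119.97 CPM in the controls and at 147, 119 and 145 CPM in the libraries labelled Tau, with control replicate 2 the highest of the 6. Its log2 fold change was -0.18 (SE 0.23, 95% interval -0.68 to 0.31, edgeR's adjusted p = 0.619), and without control replicate 2 it was 0.11.

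Control replicate 2, the library with the lowest mitochondrial share (30.5%), held the extreme of 7 members. It was the highest of the 6 libraries for 4 of 10 members, CHGB, SCG3, SCG5 and CPE, where 26.4% of all tested genes were highest in it. It was the lowest for 3, VGF, NPY and PCSK1, where 27.5% of tested genes were lowest in it. For PCSK1, which was not tested, this rests on 4 reads, where control replicate 3 had 3. Against the mean of control replicates 1 and 3, its CPM was 2.16 times as high for CHGB, 1.79 times for SCG3, 1.69 times for CPE, 1.41 times for SCG2 and 1.37 times for SCG5. The same ratio was 1.01 for CHGA and 1.05 for PCSK2, and 0.719 for NPY and 0.496 for VGF, against a median of 0.984 over all tested genes. The part of the mitochondrial share in these values was not tested.

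Together the 10 genes took 2550, 3262 and 3240 CPM in the controls and 2786, 2573 and 2934 CPM in the libraries labelled Tau. The sums overlap (3017 ± 405 and 2764 ± 181 CPM, exact two-sided permutation test p = 0.4). CHGA supplied 51.7, 47.0 and 53.0% of the sum in the controls and 30.2, 41.7 and 42.1% in the libraries labelled Tau, without overlap (exact permutation test p = 0.1, the smallest that 3 against 3 allows).

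Ratios of members within 1 library do not depend on how libraries are scaled, and 6 pairs were compared with exact two-sided permutation tests, none of which can give a p below 0.1. VGF over CHGA was 0.249, 0.148 and 0.342 in the controls and 0.872, 0.568 and 0.480 in the libraries labelled Tau. The groups do not overlap, with a log2 difference of 1.41 or a ratio 2.66 times that of the controls (exact p = 0.1, 0.15 adjusted over the 6 pairs). The highest control, replicate 3, lay below the lowest library labelled Tau, replicate 3. After scaling VGF lay higher and CHGA lower in every library labelled Tau, so this separation was fixed by those values and adds no support to them.

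NPY over CHGA was 0.128, 0.0820 and 0.106 in the controls and 0.336, 0.199 and 0.171 in the libraries labelled Tau, again without overlap (log2 difference 1.12, exact p = 0.1, adjusted 0.15). This separation too was fixed in advance, since NPY lay higher and CHGA lower in every library labelled Tau. SCG5 over PCSK2, the chaperone against its convertase, was 47.3, 80.6 and 79.3 in the controls and 13.3, 31.3 and 29.6 in the libraries labelled Tau, a log2 difference of -1.54 (exact p = 0.1, adjusted 0.15). PCSK2 was at most 1.02 CPM in the controls and at least 2.02 CPM in the libraries labelled Tau. That step is wider than the 1.79-fold range of SCG5 over the 6 libraries. The separation of this ratio thus followed from PCSK2 and adds no support to it. PCSK1 over PCSK2 was 0.313, 0.108 and 0.143 in the controls and 0.107, 0.0928 and 0.0992 in the libraries labelled Tau. These groups almost touch, since control replicate 2, with 4 PCSK1 reads, lay barely above Tau replicate 1. The log2 difference of -0.77 rests on 37 PCSK1 reads (exact p = 0.1, adjusted 0.15). The chromogranin pair overlapped. CHGB over CHGA was 0.259, 0.490 and 0.205 in the controls and 0.564, 0.286 and 0.349 in the libraries labelled Tau (log2 difference 0.37, exact p = 0.5), and SCG2 over CHGA overlapped too (log2 difference 0.61, exact p = 0.2, adjusted 0.24). No ratio changed direction when any 1 library was left out.

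**Figure D4:**
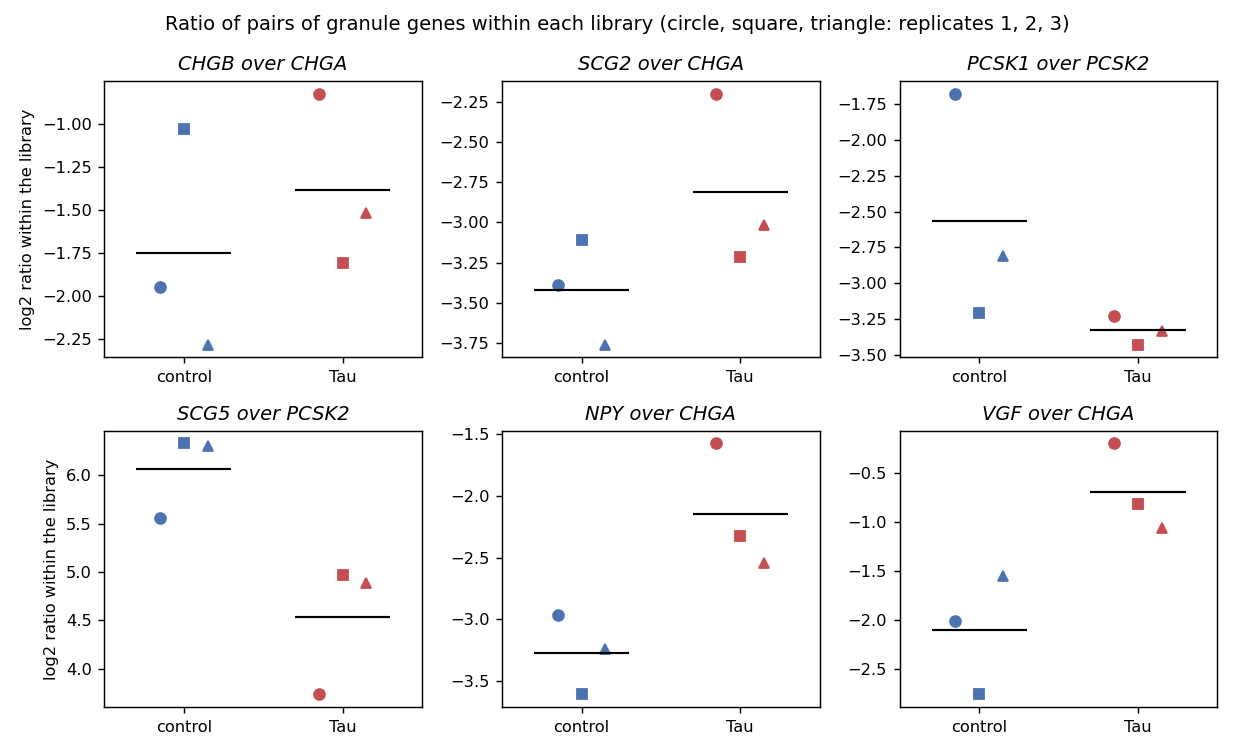
Log2 ratio of reads of 6 pairs of granule genes within each library, controls in blue and libraries labelled Tau in red, with group means as lines; the vertical axes differ and do not start at 0. VGF and NPY over CHGA are higher and SCG5 over PCSK2 lower in every library labelled Tau, while CHGB and SCG2 over CHGA overlap.

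The genes around the granule were taken from 7 related lists with 142 genes, of which 108 were tested, 13 higher and 11 lower, with a median log2 fold change of -0.0044. Set against 9.37 and 8.42% of all tested genes, these counts are near the background, and no list was tested as a set. Calls on single genes of these lists leaned on single libraries. Of the 22 that are named by rule, edgeR kept 1 without control replicate 1 (QPCT), 12 without control replicate 2, all 22 without control replicate 3, 15 without Tau replicate 1 and 9 without either Tau replicate 2 or Tau replicate 3, and the direction of none was reversed in any alternative. With the GC trend removed edgeR kept 11 of the 22 calls, in a fit that included the mitochondrial share 8, and under total counts 14, and 5 were kept in each of these 3 fits, among them QPCT, SLC30A3, SYTL4 and ATF2. The GC trend and the mitochondrial share separate the groups, so what their fits take up cannot be told apart from the label. QPCT had only 10, 9 and 8 reads in the controls.

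Of 35 other peptide precursors, 14 were tested, with a median of 0.40. In edgeR 3 were higher and 0 lower, against 9.37 and 8.42% of all tested genes. NTS, the neurotensin precursor, stood at 3.50, 3.54 and 3.44 CPM in the controls and at 6.52, 7.86 and 5.65 CPM in the libraries labelled Tau (log2 0.93, edgeR's adjusted p = 0.0253). CALCA, which encodes calcitonin and CGRP, was higher by a log2 of 1.63 (edgeR's adjusted p = 0.0254) and ADM, the adrenomedullin precursor, by 1.16 (edgeR's adjusted p = 0.0734), from means of 0.544 and 1.77 CPM in the controls. For ADM the groups overlap, with control replicate 3 at 2.86 CPM and Tau replicate 1 at 2.76 CPM. GAL, the galanin precursor and the most abundant of these by its 51.2 CPM in the controls, gave 0.28 (edgeR's adjusted p = 0.413), and 11 of the 35 were at 0 in every library. In the fit that included the mitochondrial share ADM gave 0.38 and CALCA 1.35, and under total counts NTS gave 0.58, none of them called by edgeR (adjusted p = 0.580, 0.115 and 0.163).

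Among 18 other processing enzymes and inhibitors 13 were tested, with a median of 0.51. Of these 4 were higher and 1 lower, against 9.37 and 8.42% of all tested genes, and the list as a set was not tested. QPCT, which forms the pyroglutamate end of several peptides, had the largest change, from 0.309, 0.212 and 0.273 CPM to 1.44, 1.35 and 1.03 CPM (log2 2.26, SE 0.35, edgeR's adjusted p = 0.00761). It had only 10, 9 and 8 reads in the controls and 43, 32 and 28 in the libraries labelled Tau. The latter alone carried QPCT past the filter on low counts, so its place among the tested genes depended on its being higher there. FURIN, the convertase of the constitutive pathway, was higher by a log2 of 0.86 (edgeR's adjusted p = 0.0323), and the aminopeptidase gene RNPEP by 0.76 (edgeR's adjusted p = 0.0295). CPD, a carboxypeptidase of the trans-Golgi network, was lower by a log2 of -0.72 (edgeR's adjusted p = 0.0294), from a mean of 45.8 to 27.9 CPM. With the GC trend removed neither FURIN (0.52, edgeR's adjusted p = 0.125) nor CPD (-0.43, under the limit on the fold) was called, and under total counts neither FURIN nor RNPEP (0.45, edgeR's adjusted p = 0.234) was. PCSK1N, which encodes the PCSK1 inhibitor proSAAS, gave 0.54 (edgeR's adjusted p = 0.118) and PAM, the enzyme that amidates peptides such as neuropeptide Y, gave 0.15 (edgeR's adjusted p = 0.566); both were chosen for mention after their values were seen.

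The granule membrane and its amine cargo held 13 tested genes of 15, with a median of -0.16. Of these 2 were higher and 2 lower, against 9.37 and 8.42% of all tested genes. DBH, the enzyme that makes noradrenaline inside the granule, stood at 217, 319 and 188 CPM in the controls and at 162, 79.3 and 104 CPM in the libraries labelled Tau, without overlap (log2 -1.07, SE 0.28, edgeR's adjusted p = 0.0344). ATP6AP2, an accessory subunit of the proton pump that acidifies granules, was lower by a log2 of -0.60 (edgeR's adjusted p = 0.0789). The zinc transporter gene SLC30A3 was higher by a log2 of 1.55 (edgeR's adjusted p = 0.0357) and the monoamine transporter gene SLC18A2 by 1.16 (edgeR's adjusted p = 0.0738), both from under 1 CPM in the mean of the controls. For SLC18A2 the groups overlap, with control replicate 3 at 1.19 CPM and Tau replicate 1 at 1.18 CPM. In the fit that included the mitochondrial share the values of DBH, ATP6AP2 and SLC18A2 were -0.41, -0.17 and 0.46, and edgeR called none of the 3 (adjusted p = 0.223, 0.638 and 0.546).

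Granule biogenesis and sorting had all 26 genes tested, with a median of -0.07. Of these 1 was higher and 3 lower, against 9.37 and 8.42% of all tested genes. HID1, which acts in granule formation at the Golgi, was higher by a log2 of 0.52 (edgeR's adjusted p = 0.0874). The adaptor subunit gene AP1S2 (-0.82), the arfaptin gene ARFIP1 (-0.73) and the small GTPase gene RAB2A (-0.58) were lower (edgeR's adjusted p = 0.0325, 0.0427 and 0.0813). All 4 calls were lost in edgeR with the GC trend removed, at 0.20 for HID1, -0.42 for AP1S2, -0.38 for ARFIP1 and -0.26 for RAB2A, and also in the fit that included the mitochondrial share, at 0.28, -0.45, -0.51 and -0.30. For docking and exocytosis 24 of 26 genes were tested, with a median of 0.06. In edgeR 1 was higher and 0 lower, against the same shares of all tested genes. SYTL4, which encodes the granule tethering protein granuphilin, stood at 2.54, 1.79 and 2.66 CPM in the controls and at 5.01, 5.42 and 4.92 CPM in the libraries labelled Tau (log2 1.14, edgeR's adjusted p = 0.0184).

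The receptors of neuropeptide Y were 4, and only NPY2R, the presynaptic receptor, had enough reads to be tested. It stood at 7.33, 9.87 and 3.95 CPM in the controls and at 2.15, 2.35 and 2.86 CPM in the libraries labelled Tau, without overlap. NPY2R was lower by a log2 of -1.53 (SE 0.31, edgeR's adjusted p = 0.0174), while NPY itself was higher by 0.57. The call for NPY2R was kept in 19 of 21 alternatives, with adjusted p from 7.08e-07 to 0.116. It ended without control replicate 1 (log2 -1.50, edgeR's adjusted p = 0.110) and in the fit that included the mitochondrial share (log2 -1.05, edgeR's adjusted p = 0.116).

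Of 18 genes for transcription factors, cofactors and other regulators known to act on granule genes, 17 were tested, with a median of -0.13. Of these 2 were higher and 4 lower, against 9.37 and 8.42% of all tested genes. CREB1 and ATF2, whose products bind CREs such as those printed for CHGA and VGF, were lower by a log2 of -0.73 and -0.95 (edgeR's adjusted p = 0.0459 and 0.0198). CREB1 was not called with the GC trend removed (-0.39, edgeR's adjusted p = 0.165) or in the fit that included the mitochondrial share (-0.55, edgeR's adjusted p = 0.219), while ATF2 was called in both (-0.66 and -0.86). CREB1 stood at 30.7, 30.7 and 18.6 CPM in the controls and at 16.3, 16.2 and 15.7 CPM in the libraries labelled Tau. In the same list ATF1 gave -0.52 and CREM -0.13, neither of them called (edgeR's adjusted p = 0.227 and 0.663). CRTC1 (0.28), CRTC2 (0.52) and CRTC3 (-0.01) were not called either. These were chosen for mention after their values were seen. EGR1, an activity-induced factor, was higher by 1.03 and INSM1, a neuroendocrine factor, by 1.27 (edgeR's adjusted p = 0.0652 and 0.0857). Neither was called in the fit that included the mitochondrial share (0.29 and 0.43, edgeR's adjusted p = 0.565 and 0.607), with the GC trend removed (0.93 and 0.96, edgeR's adjusted p = 0.119 and 0.186) or under total counts (0.72 and 0.96, edgeR's adjusted p = 0.135 and 0.147). The groups overlap for EGR1, with control replicate 3 at 84.4 CPM and Tau replicate 1 at 78.7 CPM. REST, which represses granule genes through RE1 sites in cells that are not neurons, gave -0.33 (edgeR's adjusted p = 0.288) and was chosen for mention after its value was seen.

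**Figure D5:**
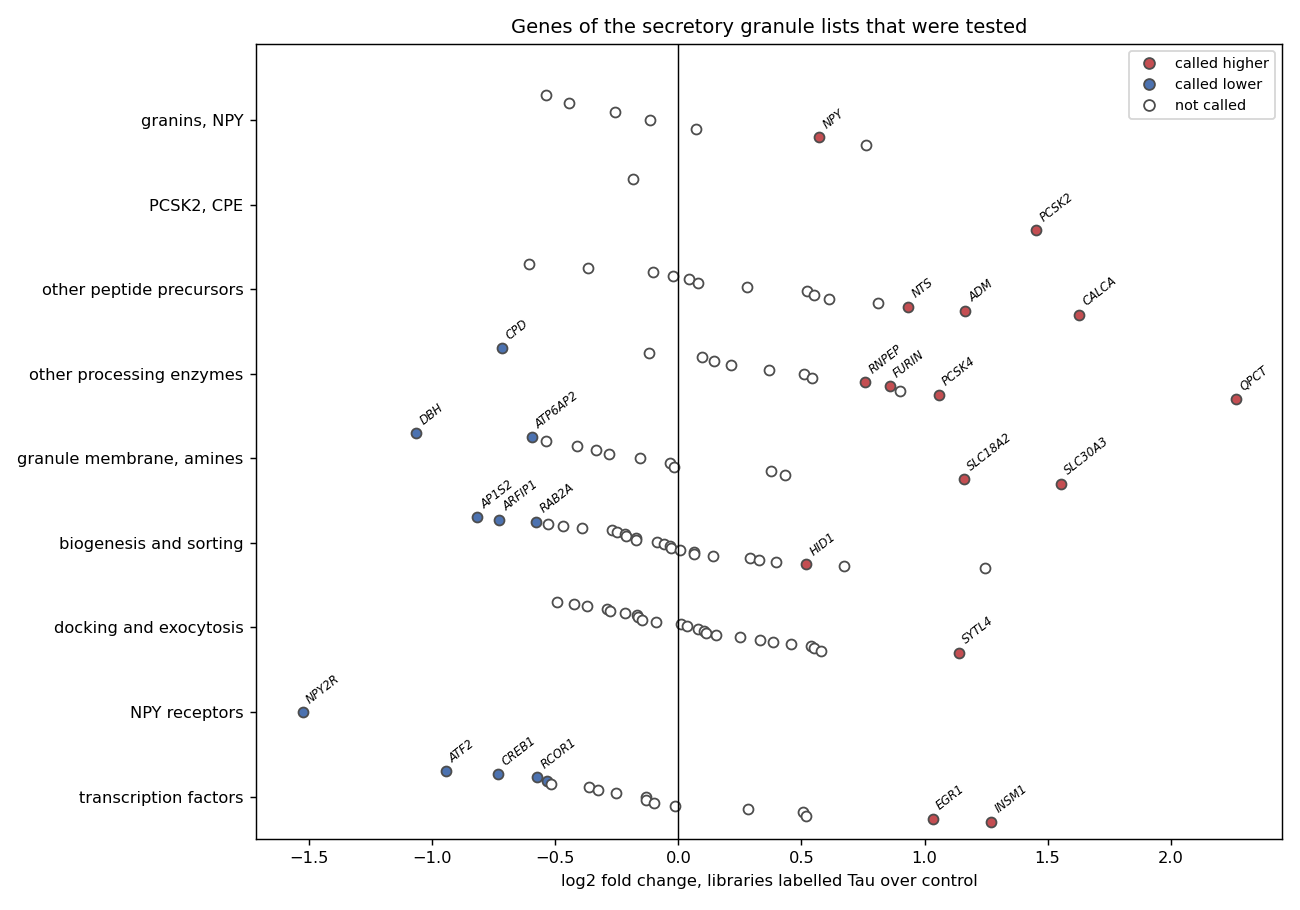
Log2 fold change, libraries labelled Tau over control, of every tested gene of the granule lists, 1 point per gene and 1 row per list, with most of the genes called by edgeR named. Calls lie on both sides of 0, 13 higher and 11 lower among 108 tested genes beyond the members, with QPCT at 2.26 and NPY2R at -1.53 as the extremes. QPCT had 8 to 10 reads in each control.

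Over the 6 libraries, the gene outside these lists whose log2 CPM was most like that of CHGA was MAP6 (Pearson r = 0.997 among 9879 genes with a mean of at least 5 CPM). The nearest for VGF was SNRNP70 (r = 0.999), for NPY RBPMS2 (r = 0.997) and for PCSK2 PPP1R3B (r = 0.991). With 6 points and 9879 candidates such values describe the libraries, which share their composition and depth, and carry no p.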

How the data were processed

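RNA-seq of 6 SH-SY5Y libraries was analysed. Per the labels and the study's methods, bcl2fastq 1.8.4 was used for base calling and TopHat2 2.1.0 for alignment to the GRCh38 genome. The authors counted reads per gene with featureCounts 1.5.0, and these whole-number count values were deposited without scaling. The authors' own statistics used R 3.4.1. The deposited RPM values are these counts scaled to the total of the library, and the deposited RPKM values divide them by a gene length as well. The labels name a TruSeq stranded mRNA kit and the study's methods another stranded kit, and the strand setting of the counting is not given in the sources used here. Counts were used for the tests, RPM for 2 alternatives and RPKM for the order of levels.

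In R 4.3.3, edgeR 4.0.16 with TMM scaling and its filter for low counts (16778 of 58395 genes kept) gave a quasi-likelihood F test with the group as the one term and p-values adjusted after Benjamini and Hochberg. Calls used the study's thresholds, 0.1 for the false discovery rate and 0.5 for the absolute log2 fold change. The study required that rate in edgeR, DESeq and baySeq together, whereas edgeR alone decided the main calls here. Log2 CPM used a prior count of 2, and ratios added 0.5 to each count. Exact permutation tests compared single values per library. Positions and GC content come from GENCODE 44 and promoters from RefSeq, and protein sequences were not used here. The scripts were tested on simulated data.

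The members and lists were chosen with earlier results of these data known. Named were all members, MAPT, in each list the 3 called genes with the smallest p in each direction (all genes of a list of 5 or fewer), and the genes most like the members that the results turn on. A gene that this rule names is not reported here. Alternatives used DESeq2 1.42.0, limma 3.58.1 (voom, and trend on RPM with a pseudocount of 1 or 0.1), edgeR's exact test, other scalings, filters and thresholds, the GC or length trend removed (lowess, span 0.3), the mitochondrial share as a covariate, a replicate block, and each library left out.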

Additional observations from a re-analysis of the deposited data

How the results depend on the processing

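The direction of CHGA, VGF, NPY and PCSK2 was the same in every alternative run. All 6 ratios kept their direction with each library left out, while scalings of whole libraries, filters and tests do not enter a ratio and could not change it. The GC trend and the mitochondrial share can act differently on the genes of a pair, and their part in the ratios was not tested. PCSK2 has too few reads for the filter of 10 CPM in 3 libraries, which gave it no value. The direction of the other members was reversed as follows. SCG2 gave a log2 fold change of -0.27 on RPM with either pseudocount and -0.26 under total counts, and -0.071 to 0.25 with 1 library left out (below 0 without control replicate 1 or 3 or Tau replicate 1). Leaving out 1 library gave -0.46 to 0.21 for CHGB and -0.34 to 0.11 for CPE, above 0 only without control replicate 2. For SCG5 it gave -0.29 to 0.084, above 0 only without control replicate 2 (0.05) or Tau replicate 1. With the mitochondrial share as a covariate CHGB gave 0.61 and was called higher (edgeR's adjusted p = 0.0874), and SCG3 gave 0.11 and CPE 0.35. The causes were not tested.

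Members called higher and lower numbered 2 and 0 in edgeR. They numbered 1 and 1 on RPM with either pseudocount, under total counts and with the GC trend removed, 1 higher with the filter of 10 CPM, at a false discovery rate under 0.05 and with the GC trend removed and the replicate block, and 1 lower in DESeq2, edgeR's exact test, the fit with no filter and the fit with the mitochondrial covariate. The last also called 2 higher, but these were PCSK2 and CHGB, with NPY at 0.49 (edgeR's adjusted p = 0.195). Leaving out 1 library gave 0 to 3 higher and 0 lower.

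The related genes numbered 13 and 11. On RPM they were 5 and 19 (pseudocount 1) and 6 and 19 (0.1), under total counts 5 and 19, with 10 CPM 6 and 7, at 0.05 8 and 7, with the GC trend removed 8 and 6, with that and the block 4 and 2, and with the mitochondrial covariate 7 and 5. Without a filter 21 were higher. Leaving out 1 library gave 1 to 25 and 0 to 15.

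All genes numbered 1572 and 1413. On RPM they were 487 and 2531, or 586 and 2779, under total counts 559 and 2886, with 10 CPM 650 and 726, at 0.05 899 and 716, with the GC trend removed 690 lower, with that and the block 465 and 211, and with the mitochondrial covariate 721 and 601. Leaving out 1 library gave 179 to 2603 and 71 to 2541.

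The sources used here do not say whether the replicate numbers pair the libraries. Deviations of same-numbered libraries correlated at -0.15, -0.46 and 0.17. These values cannot show or exclude a pairing, since library-wide differences in GC trend and mitochondrial share also enter them. With the replicate block 7 related genes and 925 of all genes were lower, VGF was called (0.87, edgeR's adjusted p = 0.0738) and NPY was not (0.58, edgeR's adjusted p = 0.160). With 3 libraries a group no exact test can pass 0.05, and PCSK1 is limited by its 37 reads.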
